A study of Mus musculus with 39 samples.

Results

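Phagocytic and scavenger receptors with their ligands were followed in microglia from 5XFAD mice and wildtype (WT) mice, with and without chronic intermittent hypoxia (CIH). The 10 genes were Axl, Mertk, Gas6, Pros1, Clec7a, Itgax, Cd36, Msr1, Cd68 and Cd14, chosen by symbol, and each was found once among the 46333 genes of the female table and once among the 54532 genes of the male table. All 10 passed the filter on low counts in every comparison. 5XFAD mice carry mutant human transgenes of familial Alzheimer's disease, driven in neurons by the Thy1 promoter, and deposit amyloid β plaques, and WT mice are given as C57Bl6. The study's methods describe C57BL/6J females crossed with 5XFAD males. Mice of both genotypes breathed either steady room air (normoxia, NX, 21% O2) or, from 4 months of age, air that alternated between 21% and 6.5% O2 in 90 s intervals. The labels give 8 hours of exposure a day, and the study's methods give more hours and a slightly lower O2 level. Females were taken at 10 months and males at 8 months, so sex, age, length of exposure and the gene annotation of each table cannot be told apart, and every comparison was made within a sex. The 39 libraries were bulk RNA of CD11b+ cells from the cerebrum, with 5 in each group of sex, genotype and treatment except 4 in F WT NX.

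These genes encode much of the machinery with which microglia recognize and take up debris. The ligand Gas6 bridges phosphatidylserine on dying cells and membranes to the TAM receptor tyrosine kinases Axl and Mertk, and the ligand Pros1 bridges it to Mertk. These receptors drive engulfment and dampen inflammation. Clec7a is the β-glucan lectin Dectin-1, Itgax the integrin CD11c, Cd36 and Msr1 scavenger receptors for lipoproteins and aggregates, Cd68 a membrane protein of lysosomes, and Cd14 the co-receptor that hands lipopolysaccharide to Tlr4. Axl, Clec7a, Itgax and Cd68 are widely used as marks of microglia that gather at amyloid plaques, whereas Mertk is high in resting microglia.

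Total counts ranged from 14731683 to 25906121 in females and from 13457293 to 23095627 in males. All 10 microglia markers were above 1 CPM (counts scaled by library size) in at least 1 library of each sex. Several libraries stood apart from their groups. F 5XFAD NX 4 lay at 19.7 on the first principal component, among the WT females (17.3 to 36.9), and the other female 5XFAD libraries lay at or below -25.1. F WT NX 1 held 482 CPM of the 6 monocyte markers and 248 CPM of the 8 neutrophil markers, against 37.5 to 63.2 and 49.4 to 76.9 CPM in the other F WT NX libraries. M 5XFAD NX 4 and M 5XFAD NX 5 lay at 38.1 and 36.6 on the second component, and the other 3 libraries of their group at or below -13.4. M WT NX 1 lay at 4.40 on that component, nearer to the M WT CIH libraries (5.86 to 13.6) than to the other 4 of its group (-27.5 to -24.3). Where leaving out these libraries moved a result, its value without them is given beside it.

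**Figure D1:**
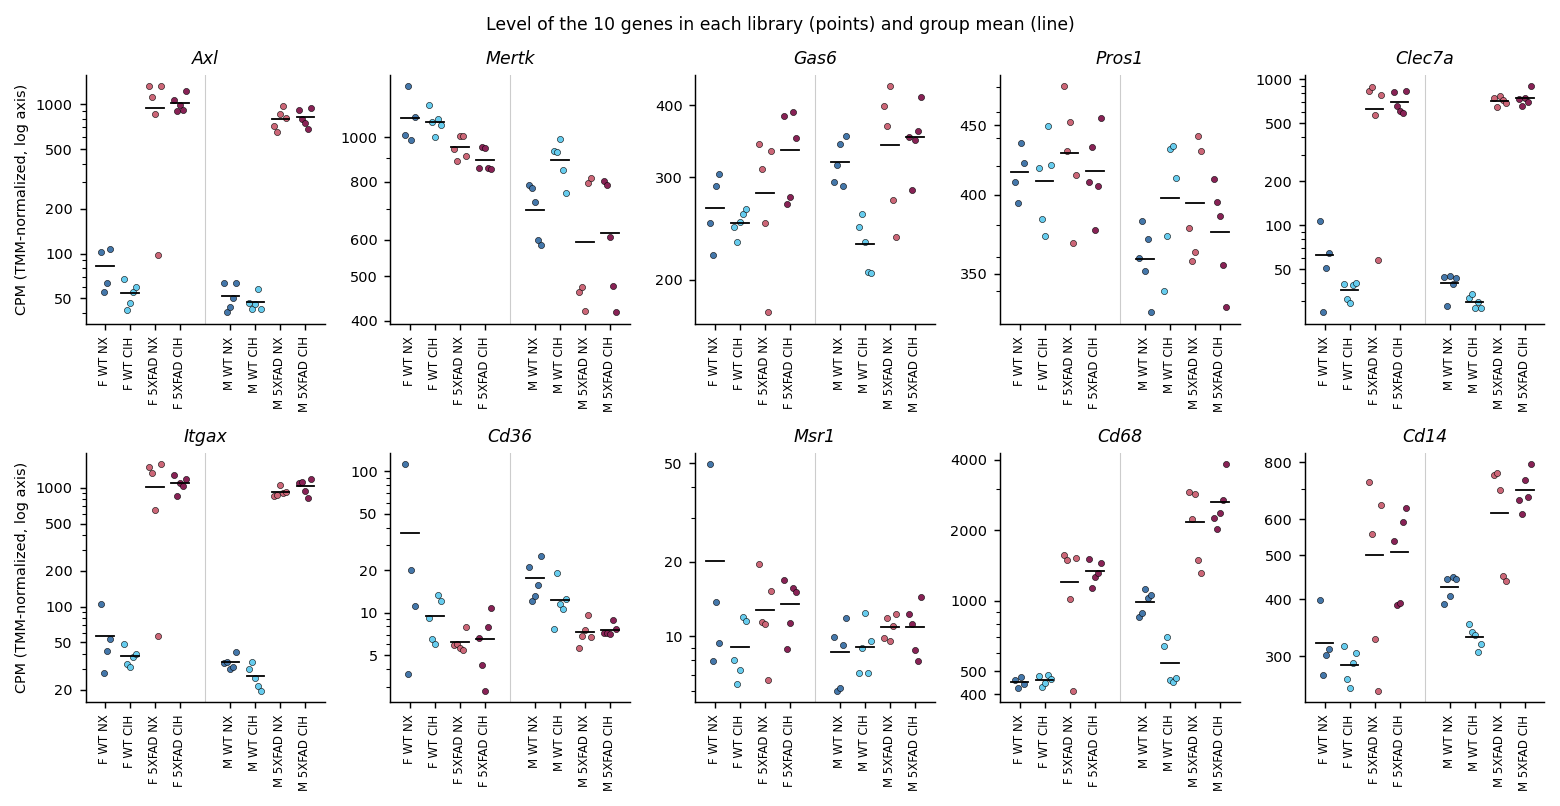
Level of each gene in CPM on a log axis, by group, for females (left of the grey line) and males (right of it). Points are libraries and lines are group means (n = 5, and 4 for F WT NX). Axl, Clec7a and Itgax sit above 560 CPM in all 5XFAD libraries but F 5XFAD NX 4 and below 110 CPM in all WT libraries, and Pros1 stays between 328 and 481 CPM in every library.

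Per kilobase of gene length, Cd68 was the highest of the 10 genes in every group, and Cd36 and Msr1 were the lowest pair. In F WT CIH the mean CPM per kb fell from Cd68 (447 ± 22.8, SD, n = 5) through Mertk (221 ± 12.6), Cd14 (173 ± 15.1), Pros1 (131 ± 9.83) and Gas6 (96.7 ± 4.87) to Itgax (16.9 ± 3.06), Clec7a (16.1 ± 2.31), Axl (12.1 ± 2.304), Cd36 (3.11 ± 1.07) and Msr1 (2.94 ± 0.828). Itgax and Clec7a lay within 1 SD of each other there, as did Cd36 and Msr1. In F 5XFAD CIH, Itgax, Clec7a and Axl had moved above Mertk: Cd68 stood at 1296 ± 145 CPM per kb, Itgax at 483 ± 71.6, Clec7a at 316 ± 52.4, Cd14 at 306 ± 68.5, Axl at 228 ± 29.4 and Mertk at 182 ± 10.4. Clec7a and Cd14 lay within 1 SD of each other, as did Pros1 (133 ± 9.55) and Gas6 (129 ± 22.01). Males gave Cd68, Cd14 and Mertk as the highest 3 in M WT CIH (433 ± 94.96, 210.2 ± 11.4 and 206 ± 21.2 CPM per kb). In M 5XFAD CIH, Clec7a (283 ± 34.8), Itgax (215 ± 30.3) and Axl (162 ± 22.4) followed Cd68 (2098 ± 568) and Cd14 (442 ± 43.3). The gene length assigned to Itgax was 4803 bases in the male table and 2263 in the female table, so levels per kb were compared only within a table. The place of Itgax within each order also depends on the length assigned.

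The first question was how the 5XFAD genotype altered these genes under each treatment. Axl, Clec7a and Itgax were higher in 5XFAD microglia in all 4 comparisons, by 10.1-fold to 39.7-fold in mean CPM, and Cd68 by 2.19-fold to 4.84-fold. With a false discovery rate (FDR, the Benjamini-Hochberg adjusted p) below 0.05 in edgeR's quasi-likelihood test, 4 of the 10 genes passed in F WT NX vs F 5XFAD NX, all higher, where 13.9% of the 14513 genes tested passed (7.26% higher and 6.61% lower). That background of 2013 genes rested on single libraries and became 43 without F WT NX 3 and 6229 without F 5XFAD NX 4. Under CIH, 8 passed in females (7 higher, 1 lower), where 51.9% of all genes tested did (26.2% higher and 25.7% lower). In males 6 passed under NX (5 higher, 1 lower) against 17.8% of all genes (10.4% higher and 7.37% lower). Under CIH, 8 passed in males (6 higher, 2 lower) against 49% of all genes (25.3% higher and 23.7% lower). Differentially expressed genes (DEGs, FDR below 0.05 and absolute log2FC above 1) numbered 4, 4, 5 and 5 of the 10 in these comparisons, against 5.99%, 13%, 8.25% and 18.7% of all genes tested. The median log2FC of the 10 was 0.36 and 0.72 in females under NX and CIH and 0.44 and 0.85 in males, beside -0.02, -0.02, 0.02 and -0.06 over all genes tested. The libraries of 5XFAD and WT did not overlap for 7 of the 10 in females under CIH (38.5% of all genes), for none in females under NX (11.5%), for 5 in males under NX (16%) and for 6 in males under CIH (36.1%). The comparisons within a sex share groups and are given side by side. The microglia markers moved with the genotype, with sums of 24468 to 29340 CPM in 5XFAD and 29904 to 37929 CPM in WT libraries. The summed CPM of the 7 dendritic cell markers was lower in 5XFAD without overlap in all 4 comparisons, at 1014 to 1346 against 1459.9 to 1765 CPM and 997 to 1184 against 1547 to 1755 CPM in females under NX and CIH, and 936 to 1225 against 1405 to 1561 CPM and 915 to 1053 against 1251 to 1462 CPM in males. Of the 6 of these genes tested, 0 were higher and 3 lower past the FDR in females under NX, 1 higher and 4 lower under CIH, and 0 or 1 higher and 4 lower in males under NX or CIH. Siglech was counted both in this list and among the microglia markers. It was 1 of the 3 lower in females under NX (log2FC -0.52 ± 0.13, SE; edgeR adjusted p = 0.0367). Its share of the sum was not separated, so the sum is no measure of dendritic cells alone. The sum of the 8 border macrophage markers was lower without overlap in females under NX (89.9 to 166 against 187 to 352 CPM, 7 genes lower past the FDR) and CIH (70.8 to 136 against 151 to 319 CPM, 7 lower) and in males under NX (108 to 147 against 241 to 342 CPM, 6 lower). It overlapped in males under CIH (4 lower). The sum of the 8 endothelial markers was higher without overlap in females under CIH (172 to 253 against 59.6 to 149.7 CPM, 2 higher and 1 lower). The median log2FC of the 8 genes there was -0.48, against the direction of the sum. The sum overlapped in the other 3 comparisons. In females under NX the median was -0.98. There Flt1 was the 1 gene higher past the FDR (3.32 ± 0.86, SE; edgeR adjusted p = 0.0369) and Pecam1 the 1 lower (-1.44 ± 0.37, SE; edgeR adjusted p = 0.0362). The sum of the 7 astrocyte markers was higher in 5XFAD without overlap in females under CIH (225 to 642 against 159 to 201 CPM, 3 genes higher and 1 lower past the FDR) and in males under NX (373 to 1009.5 against 135 to 185 CPM, 3 higher and 1 lower). It overlapped in females under NX (139 to 358 against 168 to 226 CPM, 1 higher and 1 lower) and in males under CIH (219 to 604 against 156 to 233 CPM, 1 higher and 3 lower). Gfap, the astrocyte filament protein, led the sum, at 95.6 to 405 CPM in F 5XFAD CIH and 192 to 748 CPM in M 5XFAD NX and at most 1.73 CPM in WT libraries. The part of these markers in the results was not tested.

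Axl, the TAM receptor that binds Gas6 (chr7:25757273-25788705, minus strand, GRCm38), gave 102, 54.9, 63.3 and 108 CPM in F WT NX and 1327, 1123, 857, 97.5 and 1315 CPM in F 5XFAD NX. The 4 high F 5XFAD NX libraries were all above 850 CPM and F 5XFAD NX 4 lay between the WT values. The log2FC was 3.52 ± 0.65 (SE; edgeR adjusted p = 0.0175), and without F 5XFAD NX 4 it was 3.81 (edgeR adjusted p = 6e-06). Under CIH, Axl reached 1072, 903, 986, 911 and 1219 CPM in F 5XFAD CIH against 67.5, 41.6, 46.5, 55.3 and 59.6 CPM in F WT CIH, and the groups did not overlap. The log2FC was 4.25 ± 0.14 (SE; edgeR adjusted p = 8.55e-11). In males, Axl stood at 63.5, 40.3, 43.9, 50.4 and 63.1 CPM in M WT NX and 711, 655, 855, 979 and 803 CPM in M 5XFAD NX. It stood at 46.4, 42.8, 45.9, 57.5 and 42.4 CPM in M WT CIH and 911, 793, 748, 679.8 and 949 CPM in M 5XFAD CIH, so that the lowest male 5XFAD library was above 650 CPM and the highest male WT library below 64 CPM. The log2FC was 3.94 ± 0.18 (SE; edgeR adjusted p = 1.91e-08) under NX and 4.13 ± 0.13 (SE; edgeR adjusted p = 2.21e-11) under CIH.

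Mertk, the TAM receptor of resting microglia (chr2:128698956-128802894, plus strand), fell with the genotype under CIH in both sexes, by much less than Axl rose. It gave 1171, 1075, 1001, 1097 and 1059 CPM in F WT CIH and 858, 951, 946, 859 and 851 CPM in F 5XFAD CIH, so every 5XFAD library was below every WT library. The log2FC was -0.26 ± 0.06 (SE; edgeR adjusted p = 0.00253). Under NX it gave 1008, 1291, 987 and 1103 CPM in F WT NX and 941, 889, 1004, 1007 and 909.7 CPM in F 5XFAD NX, which overlapped, with a log2FC of -0.21 ± 0.11 (SE; edgeR adjusted p = 0.226). Male Mertk levels spread more widely within 5XFAD. They were 934, 929.8, 992, 847 and 756 CPM in M WT CIH and 805, 789, 608, 477 and 417 CPM in M 5XFAD CIH, with a log2FC of -0.51 ± 0.17 (SE; edgeR adjusted p = 0.0214), a call that was lost without M 5XFAD CIH 4 or without M WT CIH 3 (highest adjusted p over single libraries left out, 0.0583). They were 786, 775, 725, 599 and 585 CPM in M WT NX and 462, 473, 419.9, 795 and 815 CPM in M 5XFAD NX. The first 3 M 5XFAD NX libraries lay below all M WT NX libraries and M 5XFAD NX 4 and 5 above them. The log2FC was -0.22 ± 0.20 (SE; edgeR adjusted p = 0.52) over all libraries and -0.62 (edgeR adjusted p = 0.000858) without those 2 libraries. A small nucleolar RNA gene and an antisense gene overlap Mertk in the male annotation, and whether the counting used strand is not given in the sources used here.

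Gas6, the ligand of both receptors (chr8:13465374-13494490, minus strand, overlapped on the other strand by Tmem255b), was higher in 5XFAD under CIH in both sexes. It gave 247, 232, 251, 259 and 265 CPM in F WT CIH and 384, 271, 277, 389 and 351 CPM in F 5XFAD CIH, with a log2FC of 0.43 ± 0.10 (SE; edgeR adjusted p = 0.00356). In M WT CIH it gave 247, 259.5, 232, 206 and 205 CPM and in M 5XFAD CIH 352, 285, 348, 361 and 413 CPM, with a log2FC of 0.62 ± 0.11 (SE; edgeR adjusted p = 0.000251). The groups did not overlap in either sex. Under NX they overlapped, at 249.9, 220.1, 290.4 and 304 CPM in F WT NX and 342, 310.4, 251, 176 and 333 CPM in F 5XFAD NX, and the log2FC was 0.09 ± 0.19 (SE; edgeR adjusted p = 0.771), or 0.21 (edgeR adjusted p = 0.198) without F 5XFAD NX 4, the lowest library. In males under NX, Gas6 gave 294, 316, 343, 290.2 and 353 CPM in WT and 398, 368, 432, 275 and 236 CPM in 5XFAD, with a log2FC of 0.10 ± 0.16 (SE; edgeR adjusted p = 0.746). The 2 lowest of these male 5XFAD values came from M 5XFAD NX 4 and 5, and without them the log2FC was 0.32 (edgeR adjusted p = 0.0192). Pros1, the Protein S gene and the other TAM ligand (chr16:62854307-62929346, plus strand), passed in none of the 4 comparisons. Its log2FC was 0.05 (95% CI -0.16 to 0.25) and 0.04 (95% CI -0.11 to 0.19) in females under NX and CIH and 0.14 (95% CI -0.09 to 0.36) and -0.07 (95% CI -0.28 to 0.14) in males. Group means of Pros1 lay between 359 ± 20.9 CPM (SD, n = 5) in M WT NX and 429 ± 42.2 CPM (SD, n = 5) in F 5XFAD NX.

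Clec7a, which binds β-glucans and signals through Syk and Card9 (chr6:129461591-129472779, minus strand, listed as a polymorphic pseudogene in the male table), gave 107, 25.2, 51.2 and 64.7 CPM in F WT NX and 834, 885, 569.7, 57.5 and 775 CPM in F 5XFAD NX. F 5XFAD NX 4 again lay inside the WT range, below F WT NX 1. The log2FC was 3.32 ± 0.71 (SE; edgeR adjusted p = 0.0236), and 4.01 (edgeR adjusted p = 1.64e-05) without both of these libraries. Under CIH the values were 39.3, 30.98, 29.3, 38.6 and 40.1 CPM in F WT CIH and 814, 654, 605, 589 and 832 CPM in F 5XFAD CIH, with no overlap and a log2FC of 4.31 ± 0.14 (SE; edgeR adjusted p = 6.54e-11). In males Clec7a gave 44.1, 28.1, 44.6, 39.3 and 43.1 CPM in M WT NX, 738, 642, 769, 719 and 684 CPM in M 5XFAD NX, 31.5, 33.6, 26.9, 29.5 and 26.97 CPM in M WT CIH and 733, 658, 742, 698 and 899.5 CPM in M 5XFAD CIH. Every male 5XFAD library was above every male WT library. The log2FC was 4.16 ± 0.15 (SE; edgeR adjusted p = 2.05e-09) under NX and 4.66 ± 0.12 (SE; edgeR adjusted p = 4.66e-12) under CIH.

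Itgax, the α chain of the complement-binding integrin CD11c/CD18 (chr7:128129547-128150657, plus strand), had the largest rise of the 10 in each comparison. It gave 105, 27.7, 42.5 and 53.4 CPM in F WT NX and 1492, 1327, 652, 56.5 and 1579 CPM in F 5XFAD NX, where the lowest 5XFAD library was F 5XFAD NX 4, below F WT NX 1. The log2FC was 4.15 ± 0.85 (SE; edgeR adjusted p = 0.021), and 4.45 (edgeR adjusted p = 5.96e-05) without F 5XFAD NX 4. In F WT CIH it gave 48.9, 33.2, 31.2, 38.1 and 39.8 CPM and in F 5XFAD CIH 1279, 855, 1106, 1030.2 and 1189.9 CPM, which did not overlap, with a log2FC of 4.85 ± 0.15 (SE; edgeR adjusted p = 4.72e-11). Male values were 33.8, 33.9, 29.8, 31.3 and 41.4 CPM in M WT NX, 855, 869, 1064, 909.6 and 924 CPM in M 5XFAD NX, 29.8, 33.98, 25.00, 21.6 and 19.6 CPM in M WT CIH and 1086, 1125, 946, 822 and 1179 CPM in M 5XFAD CIH. The lowest male 5XFAD value, in M 5XFAD CIH 4, was far above the highest male WT value, in M WT NX 5. The log2FC was 4.76 ± 0.13 (SE; edgeR adjusted p = 1.85e-10) under NX and 5.32 ± 0.18 (SE; edgeR adjusted p = 2.77e-11) under CIH. These female NX calls of Axl, Clec7a, Itgax and Cd68 were lost together without F 5XFAD NX 5, F WT NX 2, F WT NX 3 or F WT NX 4, and 1 to 3 of them without F WT NX 1 or F 5XFAD NX 1, 2 or 3. They were kept without F 5XFAD NX 4. Over these fits the log2FC stayed between 3.37 and 3.81 for Axl, 3.06 and 3.72 for Clec7a, 3.92 and 4.62 for Itgax and 1.30 and 1.63 for Cd68.

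Cd36, a receptor for oxidized lipoproteins and fibrillar amyloid (chr5:17781690-17888801, minus strand), was scarce, and lower in 5XFAD males. It gave 20.96, 12.2, 13.1, 15.7 and 25.3 CPM in M WT NX and 5.600, 6.798, 7.52, 9.67 and 6.77 CPM in M 5XFAD NX, which did not overlap, with a log2FC of -1.26 ± 0.23 (SE; edgeR adjusted p = 0.00237). It gave 7.64, 19.2, 11.6, 10.6 and 12.5 CPM in M WT CIH and 7.19, 7.16, 7.06, 8.85 and 7.73 CPM in M 5XFAD CIH, which overlapped, with a log2FC of -0.68 ± 0.21 (SE; edgeR adjusted p = 0.0141). The 8 border macrophage markers moved with it, at 241 to 342 CPM in M WT NX and 156 to 336 CPM in M WT CIH against 108 to 147 CPM in M 5XFAD NX and 104 to 198 CPM in M 5XFAD CIH, and their part in the result was not tested. As these were bulk samples, fewer cells of a type and less RNA per cell cannot be told apart. In females Cd36 gave 112, 3.71, 19.96 and 11.2 CPM in F WT NX, with F WT NX 1 far above the rest, and 5.96, 6.002, 5.59, 5.48 and 7.86 CPM in F 5XFAD NX. The log2FC was -2.58 ± 0.79 (SE; edgeR adjusted p = 0.055). Cd36 passed in the likelihood ratio test (adjusted p = 0.00708), in DESeq2 (adjusted p = 0.0155) and in the fit over all 4 female groups (adjusted p = 0.00609). It also passed with no filter on low counts and without F 5XFAD NX 4 or F WT NX 2. Without F WT NX 1 the log2FC was -0.91 (edgeR adjusted p = 0.168). Under CIH, Cd36 gave 9.24, 6.49, 6.02, 13.3 and 12.05 CPM in F WT CIH and 6.57, 4.25, 2.81, 7.91 and 10.9 CPM in F 5XFAD CIH, with a log2FC of -0.53 ± 0.32 (SE; edgeR adjusted p = 0.188).

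Msr1, the class A scavenger receptor for acetylated lipoproteins (chr8:39581685-39642673, minus strand), was as scarce as Cd36. It gave 8.04, 6.43, 7.28, 12.01 and 11.6 CPM in F WT CIH and 16.9, 8.85, 11.3, 15.6 and 15.1 CPM in F 5XFAD CIH, which overlapped, and rose by 0.59 ± 0.21 (SE; edgeR adjusted p = 0.0302) on the log2 scale. That call was lost in 6 of the 10 fits that left out 1 library: without F 5XFAD CIH 1, 4 or 5 and without F WT CIH 1, 2 or 3. It was also lost with scaling by library size alone and in the fit over all 4 female groups. In F WT NX it gave 49.6, 7.95, 13.8 and 9.44 CPM, again with F WT NX 1 highest, and in F 5XFAD NX 19.5, 11.4, 11.2, 6.66 and 15.2 CPM. The log2FC under NX was -0.67 ± 0.53 (SE; edgeR adjusted p = 0.396), and 0.30 (edgeR adjusted p = 0.545) without F WT NX 1. In males its values ranged over 6.04 to 11.8 CPM in M WT NX, 9.61 to 12.3 CPM in M 5XFAD NX, 7.12 to 12.5 CPM in M WT CIH and 7.95 to 14.4 CPM in M 5XFAD CIH. The male log2FC was 0.34 ± 0.21 (SE; edgeR adjusted p = 0.328) under NX and 0.28 ± 0.20 (SE; edgeR adjusted p = 0.256) under CIH.

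Cd68, the lysosomal membrane glycoprotein macrosialin (chr11:69664213-69666153, minus strand), gave 460.3, 426, 476 and 441 CPM in F WT NX and 1574, 1490.0, 1017, 414 and 1526 CPM in F 5XFAD NX, with F 5XFAD NX 4 below all 4 WT libraries. The log2FC was 1.41 ± 0.33 (SE; edgeR adjusted p = 0.0295), and 1.63 (edgeR adjusted p = 2.23e-05) without that library. In F WT CIH it gave 480.0, 428, 445, 483 and 466 CPM and in F 5XFAD CIH 1514, 1137, 1267, 1309.6 and 1449.8 CPM, which did not overlap, with a log2FC of 1.55 ± 0.08 (SE; edgeR adjusted p = 7.29e-09). In males it gave 856, 884, 1119, 1033 and 1058 CPM in M WT NX and 2919, 2244, 2850.4, 1495 and 1319 CPM in M 5XFAD NX. All 5XFAD libraries were above all WT libraries, and M 5XFAD NX 4 and 5 were the lowest of them. The log2FC was 1.13 ± 0.21 (SE; edgeR adjusted p = 0.00256), and 1.43 (edgeR adjusted p = 2.7e-07) without these 2. Under CIH, Cd68 gave 642, 704, 461, 449 and 469 CPM in M WT CIH and 2252, 2021, 2374, 2704 and 3835 CPM in M 5XFAD CIH, a log2FC of 2.28 ± 0.18 (SE; edgeR adjusted p = 1.99e-07).

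Cd14, the lipopolysaccharide co-receptor, rose in 3 of the 4 comparisons. It gave 316, 268, 256, 289.6 and 305 CPM in F WT CIH and 537, 388, 392, 591 and 635 CPM in F 5XFAD CIH, with no overlap and a log2FC of 0.84 ± 0.13 (SE; edgeR adjusted p = 0.000166). In males under CIH it gave 354, 339, 333, 307 and 319 CPM in WT and 661, 617, 730.3, 672 and 792 CPM in 5XFAD, again with no overlap and a log2FC of 1.08 ± 0.09 (SE; edgeR adjusted p = 3.17e-07). In males under NX the values were 390.5, 443, 407, 449 and 443 CPM in M WT NX and 749, 757, 694, 449 and 438 CPM in M 5XFAD NX, where M 5XFAD NX 4 and 5 lay in the WT range. The log2FC was 0.54 ± 0.17 (SE; edgeR adjusted p = 0.0403). This call was lost in 8 of the 10 fits that left out 1 library, among them every fit without a WT library (highest adjusted p 0.101). It was also lost with scaling by library size alone and with no filter on low counts. The log2FC was 0.78 (edgeR adjusted p = 7.59e-06) without M 5XFAD NX 4 and 5. In females under NX, Cd14 gave 399.5, 274, 303 and 311 CPM in F WT NX and 723, 556, 327, 252 and 644 CPM in F 5XFAD NX, with a log2FC of 0.63 ± 0.29 (SE; edgeR adjusted p = 0.155) over all libraries and 0.80 (edgeR adjusted p = 0.0139) without F 5XFAD NX 4.

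**Figure D2:**
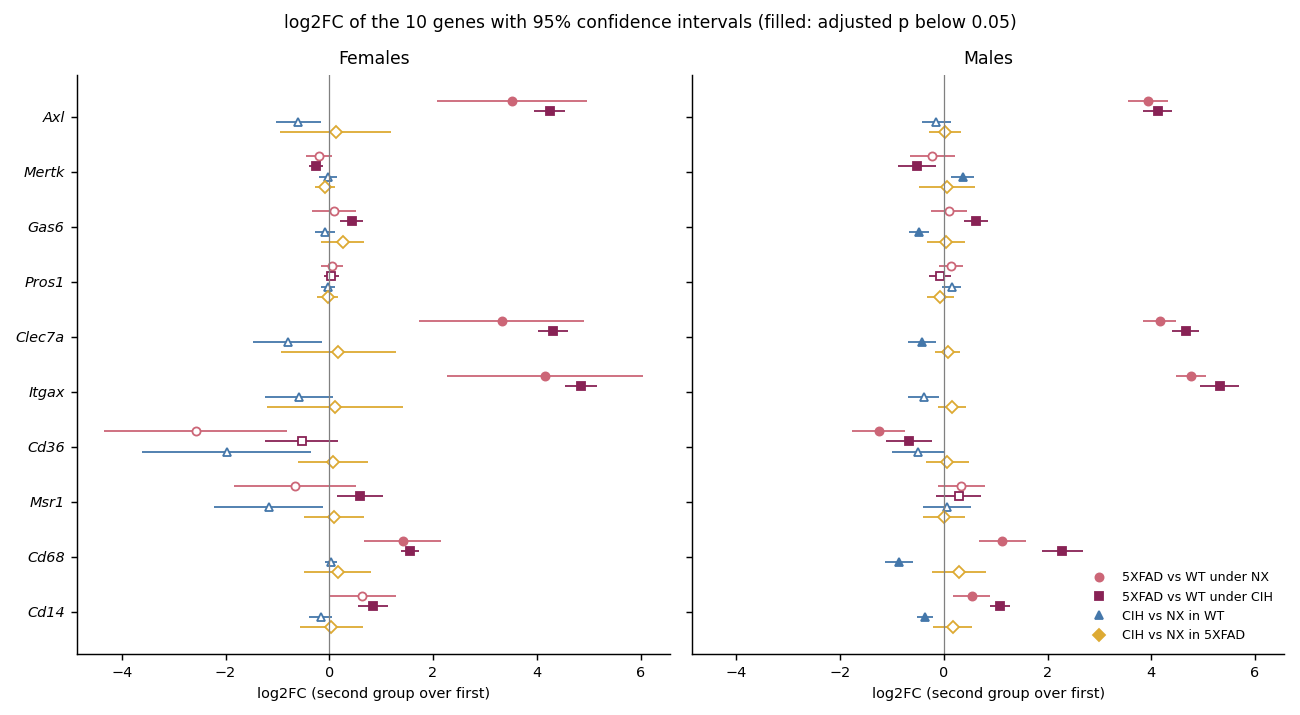
log2FC (x axis) of the 10 genes (y axis) in 4 comparisons for females (left) and males (right), with 95% confidence intervals. Filled symbols passed an FDR of 0.05. Axl, Clec7a and Itgax lie above 3 on the log2 scale in all genotype comparisons, and CIH vs NX has filled symbols only in WT males, where the largest shift is -0.86 for Cd68.

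The promoters of the 4 genes that rose with the genotype in every comparison are shown as the 250 bases before the RefSeq transcription start on GRCm38.p6, read on the strand of the gene. Capitals mark the letters GAGGAA (an ETS core, found in PU.1 sites), GGAA and GAAA set 2 bases apart (an ETS-IRF composite) and TGACTCA (an AP-1 site), searched on both strands, and a match on the other strand appears as its reverse complement. The windows lie at chr7:25788734-25788983 for Axl, chr6:129472780-129473029 for Clec7a (the first of 2 listed starts) and chr11:69666171-69666420 for Cd68, all on the minus strand, and at chr7:128129300-128129549 on the plus strand for Itgax.
Axl: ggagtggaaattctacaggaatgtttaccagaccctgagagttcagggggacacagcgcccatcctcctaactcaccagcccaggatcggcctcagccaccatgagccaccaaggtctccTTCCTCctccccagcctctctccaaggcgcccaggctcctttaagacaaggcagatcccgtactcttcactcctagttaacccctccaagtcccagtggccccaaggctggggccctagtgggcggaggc
Clec7a: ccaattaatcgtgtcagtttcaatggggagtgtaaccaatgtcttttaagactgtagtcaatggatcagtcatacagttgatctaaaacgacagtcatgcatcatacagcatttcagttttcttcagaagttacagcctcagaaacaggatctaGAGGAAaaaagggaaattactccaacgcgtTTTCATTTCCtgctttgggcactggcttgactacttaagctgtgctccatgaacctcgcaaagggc
Itgax: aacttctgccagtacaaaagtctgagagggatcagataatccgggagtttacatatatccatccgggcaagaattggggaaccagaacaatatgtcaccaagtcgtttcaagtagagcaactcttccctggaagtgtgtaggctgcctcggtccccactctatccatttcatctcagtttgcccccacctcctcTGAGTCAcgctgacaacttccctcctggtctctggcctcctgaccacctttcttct
Cd68: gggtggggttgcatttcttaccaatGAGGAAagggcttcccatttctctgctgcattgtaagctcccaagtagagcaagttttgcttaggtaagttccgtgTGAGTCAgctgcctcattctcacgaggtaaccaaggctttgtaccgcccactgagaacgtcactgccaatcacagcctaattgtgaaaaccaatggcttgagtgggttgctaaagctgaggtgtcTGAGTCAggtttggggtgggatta
GAGGAA was found once in Axl, Clec7a and Cd68 (first base at -130, -96 and -225 from the start) and in 23.3% of 32851 mouse promoters of this length. The ETS-IRF composite was found in Clec7a (at -66) and in 2.3% of promoters. TGACTCA was found once in Itgax (at -56) and at -149 and -24 in Cd68, and in 4.46% of promoters. The longer PU.1 form GAGGAAGT, which contains GAGGAA, and the hypoxia element core ACGTG, which lies within the E-box CACGTG, were not found in these 4 windows, and 2.44% and 16.6% of promoters held them. The matches are descriptions of letters and were not tested for binding.

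The next question was what CIH did within a genotype. In WT males, CIH lowered Cd68, Gas6, Cd14 and Clec7a and raised Mertk, each by less than 1 on the log2 scale. These were 5 of the 10 genes (4 lower, 1 higher), where 28.6% of the 14983 genes tested passed (15% lower, 13.6% higher). None of the 5 was a DEG, against 2.51% of all genes tested. The libraries did not overlap for 3 of the 10 (Cd68, Gas6 and Cd14), against 17.5% of all genes. The median log2FC of the 10 was -0.38, beside -0.01 over all genes tested.

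Cd68 lay between 856 and 1119 CPM in M WT NX and between 449 and 704 CPM in M WT CIH, a log2FC of -0.86 ± 0.13 (SE; edgeR adjusted p = 0.000401). The 2 M WT CIH libraries numbered 1 and 2 were the highest of their group and still below the lowest M WT NX library. Gas6 lay between 290 and 353 CPM in M WT NX and between 205 and 259.5 CPM in M WT CIH, a log2FC of -0.48 ± 0.09 (SE; edgeR adjusted p = 0.0014), and Cd14 lay between 390 and 449 CPM and between 307 and 354 CPM, a log2FC of -0.37 ± 0.07 (SE; edgeR adjusted p = 0.00208). Clec7a gave a log2FC of -0.43 ± 0.13 (SE; edgeR adjusted p = 0.0192), with M WT NX 2 inside the CIH range, and this call was lost without M WT CIH 3 (adjusted p = 0.0548) and with scaling by library size alone, which gained Pros1. Mertk rose by 0.36 ± 0.10 (SE; edgeR adjusted p = 0.0164) on the log2 scale, with M WT CIH 5 inside the NX range. Without M WT NX 1 none of the 10 genes lost or gained a call, and DEGs among all genes numbered 621 in place of 376. Itgax, Cd36, Pros1, Axl and Msr1 did not pass, with log2FC of -0.39 ± 0.14 (SE; edgeR adjusted p = 0.0517) for Itgax and -0.50 ± 0.23 (SE; edgeR adjusted p = 0.124) for Cd36, and of 0.15 (95% CI -0.03 to 0.33) for Pros1, -0.15 (95% CI -0.43 to 0.13) for Axl and 0.07 (95% CI -0.39 to 0.53) for Msr1. Itgax passed in the likelihood ratio test (adjusted p = 0.0386), with no filter on low counts and with at least 10 counts in every library. It also passed without M WT CIH 1, M WT CIH 2 or M WT NX 3. Cd36 passed with no filter and without M WT CIH 2. In a fit over all 4 male groups, in which the spread of the 5XFAD libraries enters, 0 of the 10 passed in this comparison and so did 0 of all genes tested, with a log2FC of -0.86 (edgeR adjusted p = 0.0594) for Cd68. The neutrophil markers moved with these genes, at 248 to 1248 CPM in M WT NX and 117 to 333 CPM in M WT CIH, as did the summed ribosomal protein genes, and their part in the result was not tested.

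In WT females, 0 of the 10 genes passed between NX and CIH, as did 0% of the 14583 genes tested (565 had an unadjusted p under 0.05, and DESeq2 called 0 of the 10). The groups overlapped for all 10 (0.929% of all genes did not overlap). Axl gave -0.60 (95% CI -1.04 to -0.16), Clec7a -0.81 (95% CI -1.47 to -0.14), Cd36 -1.98 (95% CI -3.61 to -0.35) and Msr1 -1.17 (95% CI -2.22 to -0.11) as log2FC, each with an unadjusted p under 0.05. Without F WT NX 1 these values were -0.47, -0.40, -0.30 and -0.19. Cd68 gave 0.03 (95% CI -0.09 to 0.15), so that a change of the size measured in WT males lay outside its interval, and the difference between the sexes was not tested.

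In 5XFAD mice, 0 of the 10 passed between NX and CIH in females (0% of 14578 genes, 470 with an unadjusted p under 0.05) and in males (0% of 14334 genes, 473 with an unadjusted p under 0.05), and DESeq2 also called 0 of the 10 in each sex. All groups overlapped (0.65% and 0.786% of all genes did not). The intervals were wide for the genes that rose most with the genotype in females, with log2FC of 0.12 (95% CI -0.95 to 1.19) for Axl, 0.17 (95% CI -0.94 to 1.28) for Clec7a and 0.11 (95% CI -1.20 to 1.41) for Itgax. Without F 5XFAD NX 4 the signs turned, to -0.17, -0.12 and -0.20. Males gave narrower intervals, 0.03 (95% CI -0.28 to 0.34) for Axl, 0.07 (95% CI -0.17 to 0.31) for Clec7a and 0.16 (95% CI -0.12 to 0.43) for Itgax. Cd68 gave 0.16 (95% CI -0.49 to 0.81) in females and 0.28 (95% CI -0.23 to 0.80) in males, and -0.06 and -0.01 without F 5XFAD NX 4 and without M 5XFAD NX 4 and 5, respectively.

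Whether the genotype difference depended on treatment was tested as an interaction over the 4 groups of each sex. No member passed in females (0% of 15582 genes, 589 with an unadjusted p under 0.05, 0 members by DESeq2) or in males (0% of 15813 genes, 3857 with an unadjusted p under 0.05, 1 member by DESeq2). In males the largest value was that of Cd68, 1.15 ± 0.30 on the log2 scale (SE; unadjusted p = 0.00082, edgeR adjusted p = 0.117), in the direction of a larger 5XFAD difference under CIH. Clec7a (0.50, 95% CI 0.15 to 0.84), Itgax (0.55, 95% CI 0.14 to 0.95), Cd14 (0.54, 95% CI 0.14 to 0.93) and Gas6 (0.52, 95% CI 0.10 to 0.93) had intervals above 0 and edgeR adjusted p between 0.122 and 0.137. Cd68 alone passed in edgeR's likelihood ratio test (adjusted p = 0.0425) and in DESeq2 (adjusted p = 0.0297), and in edgeR's quasi-likelihood test without M 5XFAD NX 1 (adjusted p = 0.0466). Without M 5XFAD NX 4 and 5 its value was 0.84 (edgeR adjusted p = 0.379). Without these 2 libraries Gas6 gave 0.29 (edgeR adjusted p = 0.518), Cd14 0.29 (edgeR adjusted p = 0.432), Clec7a 0.48 (edgeR adjusted p = 0.389) and Itgax 0.54 (edgeR adjusted p = 0.398). In females, Cd36 gave 2.03 (95% CI 0.18 to 3.88) and, without F 5XFAD NX 4 and F WT NX 1, 0.32. In males, 12 genes of the response to cell isolation, such as Fos and Jun, also differed in their sum. It was 1072 to 1617 CPM in M 5XFAD NX and 1660 to 3725 CPM in M 5XFAD CIH, without overlap, although 0 of the 12 passed. M WT NX (1537 to 2172 CPM) and M WT CIH (1408 to 2452 CPM) overlapped. The part of these genes in the interaction was not tested.

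The balance between related genes was described per kb of gene length, with no test. The ratio of Axl to Mertk was 0.111, 0.0466, 0.0703 and 0.107 in F WT NX and 0.0632, 0.0425, 0.0509, 0.0553 and 0.0617 in F WT CIH. It was 1.55, 1.39, 0.936, 0.106 and 1.59 in F 5XFAD NX and 1.37, 1.04, 1.14, 1.16 and 1.57 in F 5XFAD CIH. Mertk thus exceeded Axl per kb in every WT library and in F 5XFAD NX 3 and 4, and Axl exceeded Mertk in the other female 5XFAD libraries. Where the levels were close, this order depends on the lengths assigned. These were 4464 bases for Axl and 4897 for Mertk in the female table and 5033 and 4336 in the male table. In CPM not divided by length, Mertk also exceeded Axl in F 5XFAD CIH 2. In males the ratio lay between 0.0397 and 0.0928 in WT and between 0.848 and 1.96 in 5XFAD. Gas6 over Pros1 was 1.31, 1.32, 1.56, 1.25 and 1.73 in M WT NX and 1.16, 1.12, 0.862, 0.7604 and 0.8002 in M WT CIH, with the highest CIH library below the lowest NX library. The same ratio stayed between 0.673 and 0.868 in female WT libraries. It was 0.575 to 0.972 in F 5XFAD NX and 0.753 to 1.16 in F 5XFAD CIH. Male 5XFAD libraries gave 0.881 to 1.91 under NX and 1.16 to 2.00 under CIH. Cd68 over Mertk was 3.76, 3.93, 5.33, 5.95 and 6.23 in M WT NX and 2.37, 2.61, 1.601, 1.83 and 2.14 in M WT CIH, and reached 9.65, 8.83, 13.5, 19.6 and 31.7 in M 5XFAD CIH. In M 5XFAD NX it was 21.8, 16.4, 23.4, 6.49 and 5.58, with M 5XFAD NX 5 inside the M WT NX range.

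**Figure D3:**
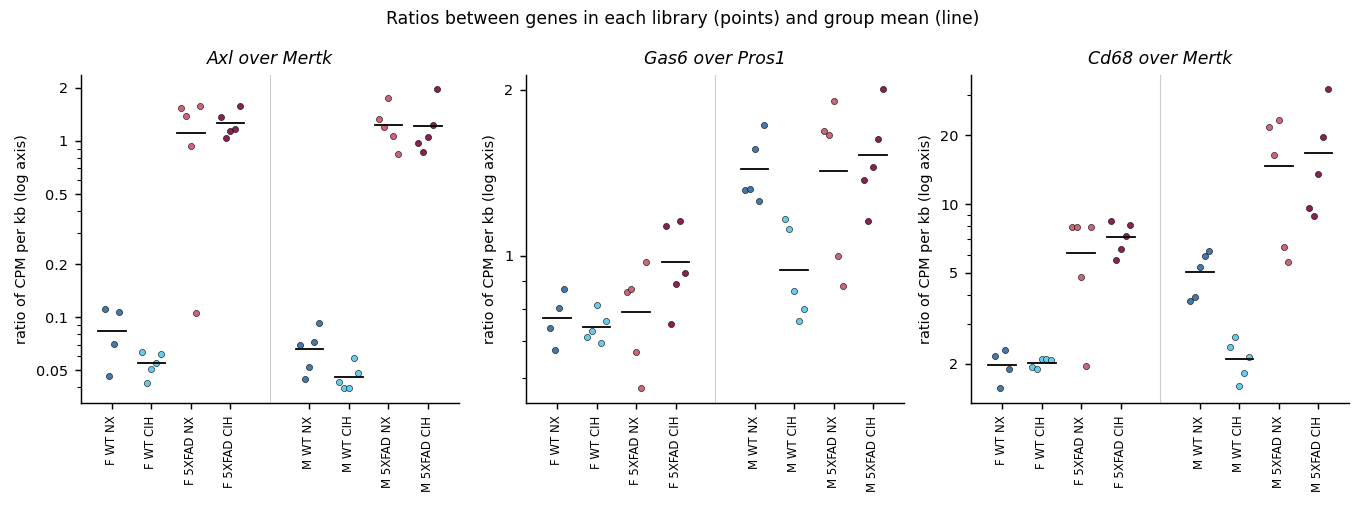
Ratios of CPM per kb on a log axis for Axl over Mertk, Gas6 over Pros1 and Cd68 over Mertk, by group. Points are libraries and lines are group means (n = 5, and 4 for F WT NX). Axl over Mertk is below 0.12 in WT libraries and in F 5XFAD NX 4 and above 0.84 in the other 5XFAD libraries.

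Some 5XFAD libraries departed from their groups in several of the 10 genes. In M 5XFAD NX 4 and 5, Cd68 (1495 and 1319 CPM), Gas6 (275 and 236 CPM) and Cd14 (449 and 438 CPM) were lowest of their group and Mertk (795 and 815 CPM) highest. Axl (979 and 803 CPM), Clec7a (719 and 684 CPM) and Itgax (909.6 and 924 CPM) lay within or above the values of the other 3 libraries. In F 5XFAD NX 4, all of Axl, Clec7a, Itgax, Cd68, Gas6 and Cd14 were lowest of the group. In M 5XFAD CIH 5, all of these 6 genes were highest of the group and Mertk lowest. The summed level of ribosomal protein genes differed along the same lines. It was 59948, 57899, 61227, 27149 and 24928 CPM in M 5XFAD NX 1 to 5 and 45982, 40794, 52648, 58771 and 79709 CPM in M 5XFAD CIH 1 to 5. M 5XFAD CIH 5 had the highest sum of its group, and M 5XFAD CIH 2, with the lowest sum, had the lowest Cd68, Gas6, Cd14 and Clec7a and the second highest Mertk. In male WT libraries the sum was 20197 to 29209 CPM under NX and 13164 to 14814 CPM under CIH, without overlap. In females it was 33155, 33544, 22562, 10855 and 31364 CPM in F 5XFAD NX 1 to 5, 21946 to 37619.6 CPM in F 5XFAD CIH, 11194 to 15585 CPM in F WT NX and 11291 to 14136 CPM in F WT CIH. The part of what moves the ribosomal protein genes in the results for Cd68, Gas6, Cd14 and Mertk was not tested.

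**Figure D4:**
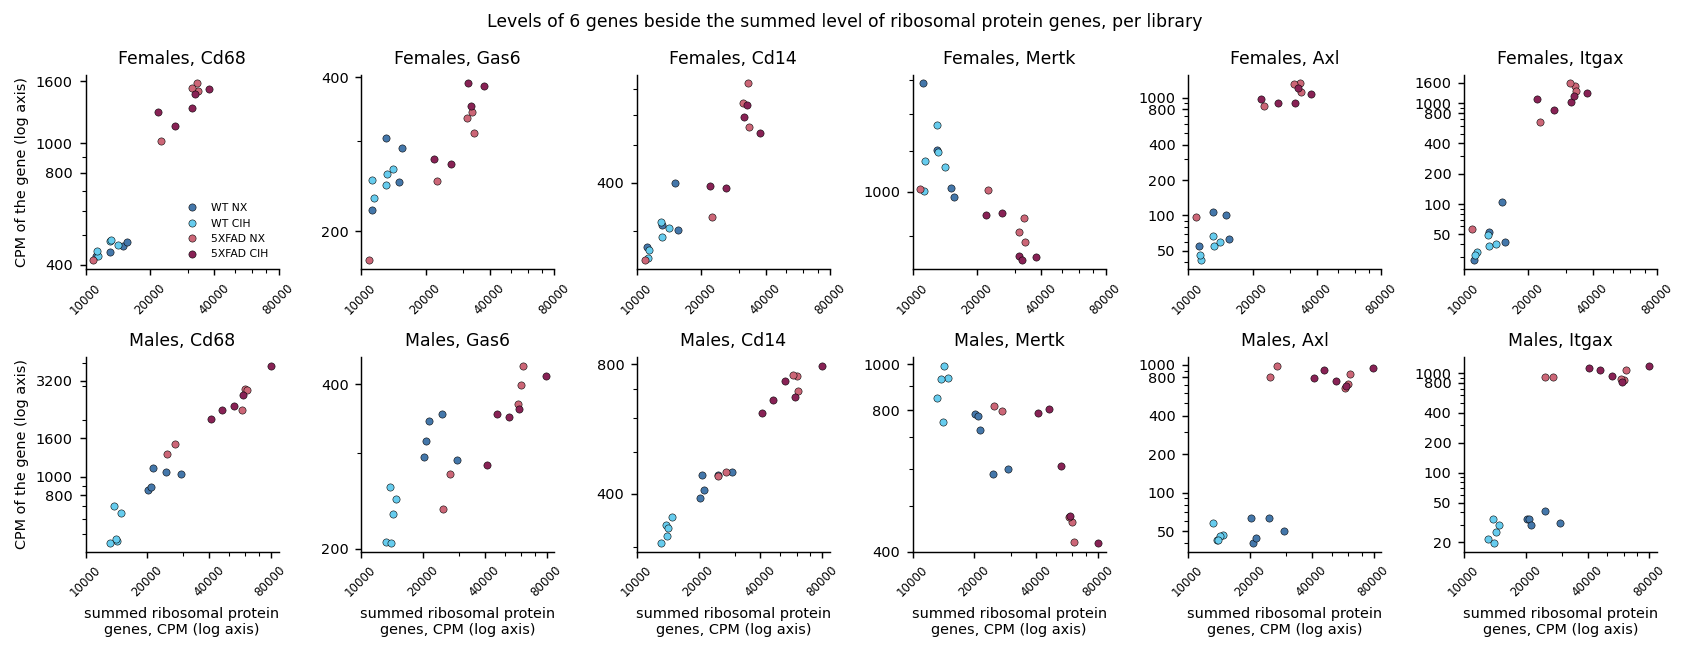
CPM of Cd68, Gas6, Cd14, Mertk, Axl and Itgax (y axes, log) against the summed CPM of the ribosomal protein genes (x axes, log) for each female library (upper row) and male library (lower row), coloured by group. M 5XFAD NX 4 and 5 sit at the lowest sums of the male 5XFAD libraries, with the lowest Cd68, Gas6 and Cd14, and Axl and Itgax of 5XFAD males lie between 650 and 1180 CPM over sums of 24928 to 79709 CPM, with the highest Itgax at the highest sum.

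Other genes of the same pathways were counted from lists set by known function, of which none was tested as a set. Of all genes tested, 7.26% were higher and 6.61% lower in females under NX, 26.2% and 25.7% in females under CIH, 10.4% and 7.37% in males under NX and 25.3% and 23.7% in males under CIH, and counts of a list near these shares are no result about the list. The list counts in females under NX moved with single libraries as the share of all genes did. There, Clec4a1 and Fcgrt, named after their values were seen, were the only list genes called that passed in all 9 fits that left out 1 library. With the replicate block 0 passed in each list. Among 22 tested partners of TAM and phosphatidylserine uptake, 9 rose and 5 fell with the 5XFAD genotype in females under CIH, and 7 rose and 4 fell in males under CIH, with a median log2FC of 0.21 and 0.07. The 5 and 4 that fell were below the share of all genes. Under NX, 0 rose and 4 fell in females and 5 rose and 4 fell in males. In the female NX comparison the counts were 7 and 4 of 21 without F 5XFAD NX 4 and 0 and 0 without F WT NX 3. Cd300lf, a phosphatidylserine receptor, rose by 2.80 ± 0.19 (SE; edgeR adjusted p = 7.39e-08) in females under CIH and by 2.64 ± 0.24 (SE; edgeR adjusted p = 8.5e-06) in males under NX on the log2 scale. Anxa5, which binds exposed phosphatidylserine, rose by 2.41 ± 0.13 (SE; edgeR adjusted p = 1.3e-08) in females and 2.72 ± 0.12 (SE; edgeR adjusted p = 5.14e-10) in males under CIH. Stab1, a scavenger receptor of perivascular macrophages that also binds phosphatidylserine, fell in all 4 comparisons, with log2FC of -1.15 and -1.43 in females and -1.41 and -1.24 in males. The female NX call of Stab1 held in 1 of the 9 fits that left out 1 library (log2FC -1.49 to -1.03), and not with the replicate block (adjusted p = 0.119). Of the other scavenger receptors, 3 rose and 2 fell among 13 tested in females under NX, 6 rose and 3 fell under CIH, and 4 rose and 2 or 4 fell among 12 in males under NX or CIH. The 3 that fell in females under CIH are near the share of all genes. The collectin Colec12 rose by 3.95 ± 0.29 (SE; edgeR adjusted p = 1.35e-07) in females and 2.74 ± 0.31 (SE; edgeR adjusted p = 6.19e-06) in males under CIH. The macrophage mannose receptor Mrc1, also a border macrophage marker, fell in both sexes under NX (-1.20 ± 0.23, edgeR adjusted p = 0.0181 in females and -1.14 ± 0.18, edgeR adjusted p = 0.000789 in males). The female call held in 5 of the 9 fits that left out 1 library.

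The list of other C-type lectins and their Card9 relay left out Clec9a, counted among the dendritic cell markers, which rose by 1.02 ± 0.24 (SE; edgeR adjusted p = 0.00323) in females and 0.99 ± 0.35 (SE; edgeR adjusted p = 0.0314) in males under CIH and was named after its values were seen. Of the list, in females 0 rose and 6 fell among 15 tested under NX and 0 rose and 8 fell under CIH, with a median log2FC of -1.18 and -0.71. In males 0 rose and 7 fell among 17 tested under NX and 2 rose and 7 fell under CIH, with a median of -0.72 and -0.62. The shares that fell were above the 6.61% and 25.7% of all genes in females and the 7.37% and 23.7% in males, with no test of the list. In females under NX, 1 fell without F WT NX 3 and 8 without F 5XFAD NX 4. Among those past the FDR, Cd209a, a dendritic cell lectin, fell by the most in females under NX, with a log2FC of -2.02 ± 0.34 (SE; edgeR adjusted p = 0.0162), and under CIH, with -2.20 ± 0.28 (SE; edgeR adjusted p = 2.15e-05), followed under CIH by Clec4a2 (-1.74 ± 0.11, edgeR adjusted p = 3.53e-08). Clec4d (-3.91 ± 1.34, edgeR adjusted p = 0.0749) and Clec4n (-2.87 ± 0.85, edgeR adjusted p = 0.0504), chosen after their values were seen, had larger values in females under NX that did not pass. Cd209a and Clec10a were also among the dendritic cell markers, whose sum was lower in 5XFAD and includes the microglia marker Siglech. The part of these markers in the result was not tested. Among 16 leukocyte integrins and ligands tested under CIH, 5 rose and 5 fell in females and 3 rose and 6 fell in males, beside 26.2% and 25.7% and 25.3% and 23.7% of all genes, with Itga5, the fibronectin receptor chain, up by 1.14 ± 0.08 (SE; edgeR adjusted p = 1.1e-07) and 1.27 ± 0.09 (SE; edgeR adjusted p = 5.48e-08), and Itga9 at -1.40 ± 0.11 (SE; edgeR adjusted p = 2.71e-07) and -1.30 ± 0.17 (SE; edgeR adjusted p = 2.96e-05). Under NX, 1 rose and 1 fell among 16 in females and 1 rose and 4 fell among 15 in males. Of the 11 receptor partners of Cd14, 1 rose and 1 fell in females and 1 rose and 0 fell in males under NX. Under CIH, 3 rose and 5 fell in females and 5 rose and 3 fell in males, of which the 3 in each sex are near the share of all genes. Tlr2, which Cd14 also serves, rose in all 4 comparisons, by 1.30 and 1.37 in females and 1.02 and 1.12 in males. Its female NX call held in 3 of the 9 fits that left out 1 library. Of the 6 genes of the Fc gamma receptor list, 0 rose and 1 fell in females and 2 rose and 1 fell in males under NX, and 3 rose and 1 fell in females and 4 rose and 0 fell in males under CIH, beside the same shares of all genes.

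In WT males under CIH, all 6 genes of the Fc gamma receptor list fell, where 15% of all genes were lower and 13.6% higher, with a median log2FC of -0.48 and the largest falls in Fcer1g (-0.71 ± 0.11, edgeR adjusted p = 0.000541), the shared signalling chain, and Fcgrt (-0.56 ± 0.10, edgeR adjusted p = 0.000979). With single libraries left out, 4 to 6 of the 6 fell, 4 without M WT NX 5. The neutrophil markers moved with them, at 248 to 1248 CPM in M WT NX and 117 to 333 CPM in M WT CIH, with 7 of 8 lower past the FDR. The monocyte markers gave 61.3 to 152 and 39.5 to 78.3 CPM, with 3 of 6 lower. The ribosomal protein genes summed to 20197 to 29209 and 13164 to 14814 CPM, without overlap. The part of these in the result was not tested. Among the 11 tested partners of Cd14, 1 rose and 2 fell, counts near the shares of all genes. Tlr4 rose (0.79 ± 0.14, edgeR adjusted p = 0.000918) while Ly86 (-0.70 ± 0.10, edgeR adjusted p = 0.000317) and Cd180 (-0.58 ± 0.16, edgeR adjusted p = 0.0134), a pair that forms a receptor complex related to Tlr4, fell. In the remaining lists, 1 rose and 3 fell among the phosphatidylserine partners, 0 rose and 1 fell among the scavenger receptors, 1 rose and 3 fell among the lectins and 1 rose and 5 fell among the integrins. Apart from the 5 integrins that fell, these counts are near or below the shares of all genes. None of these calls held in the fit over all 4 male groups, in which 0 of all genes passed.

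The genes whose pattern was most like each of the 10 were named by the mean Pearson correlation of log2 CPM over 19 female and 20 male libraries, among 13443 genes, as a description, since these libraries share their genotype and treatment groups. For Itgax they were Csf1 (0.996), Igf1 (0.994) and Cst7 (0.993), for Axl Csf1 (0.993), Nceh1 (0.991) and Cst7 (0.990) and for Clec7a Igf1 (0.993) and Csf1 (0.993). For Cd68 they were Ctsa (0.993), Ctsz (0.993) and Naglu (0.992), for Cd14 Ybx1 (0.970), Litaf (0.967) and Dap (0.965) and for Gas6 Tecr (0.937), Capzb (0.921) and G6pc3 (0.916). Mertk was most like Pag1 (0.942), Kdm3b (0.937) and Golm1 (0.928), and Pros1 most like Itgb1 (0.820), Eif4g2 (0.768) and Galnt1 (0.764). The scarce genes had looser likenesses, Cd36 with Tgfbi (0.875), Clec4n (0.832) and Pla2g7 (0.778) and Msr1 with Cbfb (0.711), Cd300ld (0.698) and Rnf11 (0.675).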

How the data were processed

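Bulk RNA of CD11b+ cells, isolated from the cerebrum with magnetic beads, was sequenced in 39 libraries. The authors aligned reads to the mouse genome, with HISAT2 and the GRCm38 (mm10) build named in the submitters' processing notes, and deposited gene counts in one table for each sex. The counting tool and strandedness are not given in the sources used here. The authors also deposited FPKM values, which served here only for the gene lengths of the female table, and columns of group comparisons, which were not used.

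Libraries were grouped by the labels. Counts were filtered at more than 1 CPM in at least 3 libraries of a comparison, scaled by TMM and tested for each pair of groups with edgeR 4.0.16 (quasi-likelihood F test, Benjamini-Hochberg adjustment over all genes tested) in R 4.3.3. The interaction used all 4 groups of a sex. DEGs had FDR below 0.05 and absolute log2FC above 1. Printed CPM values were scaled by TMM over all libraries of a sex. CPM per kb used the gene length of each table. The script was tested on simulated counts. Labels number the libraries and the study's methods call them independent samples. If they are not separate mice, p-values measure only the spread between these samples. No 2 libraries of a group agreed within sampling noise.

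The members and lists were chosen with earlier results of these data known. Named genes were the 10 members, up to 3 genes of each pathway list with the largest absolute log2FC among those passing the test in a comparison, and the 3 genes most alike to each member. Some genes named by this rule are not reported here. Further comparisons of genes so named are quoted where the same gene is described. Alternatives were DESeq2 1.42.0, the likelihood ratio test, library size scaling, other filters, a replicate block, all 4 groups in one fit and leaving out each library. After the data were seen, fits excluding F 5XFAD NX 4 with F WT NX 1, or M 5XFAD NX 4 and 5, were added, and all alternatives were also counted over the pathway lists.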

Additional observations from a re-analysis of the deposited data

Results flagged for a closer look

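In 80 sets of one gene in one group, the highest or lowest library was compared with the others by Dixon's test, which by chance marks about 1 set in 20, and 4 were marked. Cd36 in F WT NX 1 stood at 112 CPM, against 3.71 to 19.96 CPM in the other 3 libraries of the group. Msr1 in the same library stood at 49.6 CPM, against 7.95 to 13.8 CPM in the others, and that library also held the high monocyte and neutrophil marker sums. Cd36 in F 5XFAD NX 5 stood at 7.86 CPM, above 5.48 to 6.002 CPM in the other 4. Axl in M WT CIH 4 stood at 57.5 CPM, above 42.4 to 46.4 CPM in the other 4, and that library also had the highest neutrophil marker sum of its group (333 CPM).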

How the results depend on the processing

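Of 1900 values of the 10 genes under alternative settings, 1817 kept their direction and side of the threshold or were uncalled, 57 lost and 25 gained the call, and 1 reversed, while 76 uncalled values changed sign. The reversed value was Pros1 in F WT CIH vs F 5XFAD CIH scaled by library size alone, -0.15 (edgeR adjusted p = 0.0341) against 0.04. That scaling moved the median of all genes to -0.21 there, to -0.17 and -0.16 under NX in females and males and to -0.43 in M WT CIH vs M 5XFAD CIH, so that Pros1 lay near the median. The same scaling gained Pros1, as lower, in M WT CIH vs M 5XFAD CIH. In F WT NX vs F 5XFAD NX the 4 members called became 0 to 6 with single libraries left out, 0 with a replicate block and 5 without both F 5XFAD NX 4 and F WT NX 1. The count over all genes went from 2013 to 43 (without F WT NX 3) and 6229 (without F 5XFAD NX 4), to 7 with the block, 1311 by library size alone, 3509 in DESeq2 and 4622 with all 4 groups in one fit. Called as DEGs, members numbered 4 in place of 8 in females under CIH, 5 in place of 8 in males under CIH and 0 in place of 5 in M WT NX vs M WT CIH. In the last comparison the fit over all 4 groups called 0 members and 0 of all genes, against 4279. In the male interaction, the likelihood ratio test, DESeq2 and the fit with no filter on low counts called 1 member (Cd68), single libraries left out gave 0 to 1, and all genes called numbered 248, 633 and 1754 against 0, and 953 without M 5XFAD NX 1. In M WT NX vs M 5XFAD NX the block called 1310 genes and the fit without M 5XFAD NX 4 and 5 called 4792, against 2638. In no comparison did all same-numbered libraries deviate together (r between -0.49 and 0.35) or all match their own number best, although r was 0.21, 0.35 and 0.30 for numbers 3, 4 and 5 of F 5XFAD NX and CIH, and the numbers were not taken to pair the libraries. Beside the loss in F WT NX vs F 5XFAD NX, the replicate block lost Cd14 in M WT NX vs M 5XFAD NX and gained Cd36 in F WT CIH vs F 5XFAD CIH, where it called 9 members. Cd36 was gained in F WT NX vs F 5XFAD NX by 4 other fits over all libraries, and Itgax in M WT NX vs M WT CIH by 3. The causes of these shifts were not tested.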
